A study of Mus musculus with 6 samples.

Results

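The effector cytokine and immunoregulatory genes Ifng, Il2, Il17a, Il21, Il22, Il9, Tnf, Lta, Ebi3 and Fgl2, which lie outside the Th2 cytokine locus, were examined in splenic regulatory T cells (Tregs) with and without a deletion of the transcription factor CREB. They were found by exact match of the gene symbol in the platform annotation of the array. Each of the 10 genes had exactly 1 transcript cluster (a group of probes read out as 1 transcript) with no other symbol on it, so that 10 of the 65956 clusters on the array belonged to them and 0 were shared between genes.

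Effector cytokines are secreted or surface-bound signals by which T cells direct other cells, and most of their genes are silent in resting T cells and switched on after the T cell receptor is engaged. Tregs, which hold immune responses in check, repress several of these genes through Foxp3 and in turn make inhibitory products, among them the interleukin-35 subunit encoded by Ebi3 and the secreted suppressor Fgl2. CREB is a transcription factor that binds cAMP response elements (CRE) in promoters and is known to act on several T cell cytokine genes, including Il2.

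Genome-wide RNA levels were measured on 6 arrays of CD4+CD25+Nrp1+ cells, 3 of the CREB-KO group and 3 of the CREB-WT group, each array with cells of a separate animal. CREB-KO mice were Foxp3cre CREBfl/fl animals, in which Cre recombinase expressed from the Foxp3 locus removes loxP-flanked Creb1 in cells that express Foxp3. CREB-WT mice are called WT in the labels, whereas the study's methods describe CREBfl/fl mice without Cre, so the Cre allele goes along with the loss of CREB. All animals were untreated males aged 10 to 12 weeks, and cells were enriched from the spleen with magnetic beads and then sorted as Nrp1+, a surface protein found mostly on Tregs that arise in the thymus. Levels are log2 values, and every difference is CREB-KO minus CREB-WT, so that a difference of 1 is a doubling as long as the values as deposited are true log2 values.

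Any pair of arrays correlated at 0.980 to 0.988 over all clusters, and the median of all clusters was 4.55 to 4.58 on CREB-KO arrays and 4.48 to 4.53 on CREB-WT arrays. The cluster of Creb1, the targeted gene, read 14.10, 14.39 and 14.79 on arrays labelled CREB-KO, against 13.30, 13.94 and 13.34 on those labelled CREB-WT. This difference of 0.90 ± 0.25 (SE) goes against the labels. It is not known here which of its probes the deletion removes, so it does not check them, and both group names below stand for arrays as labelled. Il10 and Il13, which the study followed up from these arrays, were past its thresholds and read higher on arrays labelled CREB-KO without overlap. Their differences were 2.07 ± 0.36 (limma p 0.00102, adjusted p 0.644) and 1.845 ± 0.26 (limma p 0.000307, adjusted p 0.511). In CREB-WT Il13 was near background, as defined below, with a mean of 4.90 and 1 of 3 arrays above the limit. Mean levels of 8 measured Treg markers were 13.55 to 14.24 on CREB-KO arrays and 13.80 to 14.14 on CREB-WT arrays, whereas Foxp3 and Nrp1 share their clusters with other symbols and were not used. Markers of macrophages and monocytes, cells that the sort for CD4, CD25 and Nrp1 is meant to remove, were present as well. Of 14 measured, 13 lay below 0 in the comparison and 0 passed the study's thresholds, with mean levels of 7.58, 6.34 and 5.46 on CREB-KO arrays and 8.26, 7.64 and 6.49 on CREB-WT arrays. None reads 0 on this scale, and Cd14 and Clec7a were near background in both groups. In bulk samples such as these, fewer cells of a type and less RNA per cell cannot be told apart.

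None of the 10 genes changed at the thresholds that the study applied to its arrays, a fold of at least 1.5 and an unadjusted p of 0.05. Over the whole array 1547 of 65956 clusters (2.35%) were past these thresholds, 1067 (1.62%) with CREB-KO higher and 480 (0.728%) with CREB-KO lower. CREB-KO was thus higher in 69% of the called clusters, against 54.1% after each array was centred on its median and 59% after quantile normalization. After Benjamini-Hochberg adjustment over all clusters in limma 0 clusters passed (0%). At an unadjusted p below 0.05 were 0 of the 10 genes and 3689 clusters (5.59%), and the methods' t-test on the same values put 1 gene, Il22, below 0.05. Among the 1227 clusters of olfactory receptor genes, used as background below, 0.815% were past the thresholds. The lowest adjusted p among the 10 genes was 0.903.

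Between the groups 8 of the 10 genes lay above 0 and 2, Tnf and Lta, below, where 60.4% of all clusters lay above 0. The median difference of the 10 genes was 0.25, and that of all clusters 0.05. In 1 gene, Il22, every CREB-KO value exceeded every CREB-WT value, and in 0 genes they were all below. Of all clusters 7.87% had CREB-KO entirely above and 3.29% entirely below. The plot of values by array shows the 10 genes side by side.

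**Figure D1:**
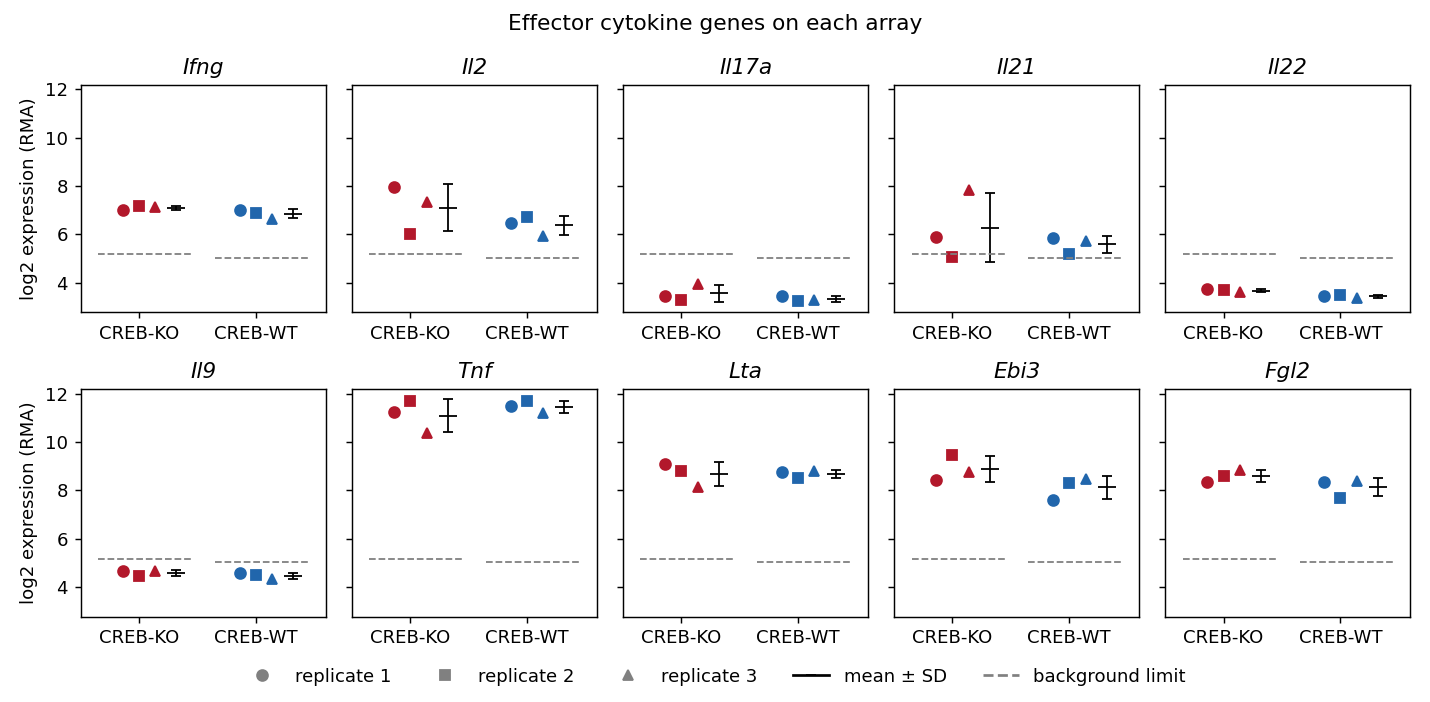
Log2 values (vertical axis) of the 10 cytokine genes (panels) on the 3 CREB-KO arrays, drawn left, and the 3 CREB-WT arrays, drawn right. Points are single arrays, bars the group mean with its SD, and the dashed line the background limit of the group; Il17a, Il22 and Il9 lie under that line, and Il2, Il21, Tnf and Ebi3 spread over more than 1 log2 unit within CREB-KO.

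To tell a signal from background, olfactory receptor genes were used, a large family that T cells are not known to express. The 95th percentile of the group means of their 1227 clusters was 5.16 in CREB-KO and 5.02 in CREB-WT, and a gene under this limit was counted as near background. Il17a, Il22 and Il9 were near background in both groups, and the other 7 genes were above the limit in both. Of the 25954 clusters above the limit in the mean of all arrays, 4.43% were past the study's thresholds and 6.34% had CREB-KO entirely above CREB-WT, and neither held for any of these 7 genes. On single arrays Il21 was above the limit on 2 of 3 CREB-KO arrays and on 3 of 3 CREB-WT arrays.

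Among the products of type 1 helper T cells, Ifng encodes interferon-gamma, which activates macrophages. Its values were 7.0, 7.18 and 7.12 on CREB-KO arrays and 7.02, 6.89 and 6.64 on CREB-WT arrays (cluster TC1000001452.mm.1). The groups overlapped by the lowest CREB-KO array and the highest CREB-WT array. The means were 7.10 ± 0.09 in CREB-KO and 6.85 ± 0.19 in CREB-WT (SD, n = 3 each), a difference of 0.25 ± 0.14 (SE, 95% interval -0.09 to 0.59, limma p 0.121, adjusted p 0.913, exact permutation p 0.2). Without CREB-WT replicate 3 it was 0.14. The smallest p that the permutation test allows with 3 against 3 arrays is 0.1, so that it could not pass 0.05 for any gene.

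Tnf and Lta encode tumour necrosis factor and lymphotoxin-alpha, relatives that bind the same pair of TNF receptors, and their genes are neighbours in RefSeq. Tnf stood at 11.22, 11.68 and 10.35 on CREB-KO arrays and at 11.49, 11.69 and 11.19 on CREB-WT arrays (cluster TC1700001954.mm.1). CREB-KO replicate 3 was the lowest of the 6, and the other CREB-KO arrays lay within the range of CREB-WT. The means were 11.09 ± 0.67 in CREB-KO and 11.46 ± 0.25 in CREB-WT, a difference of -0.37 ± 0.34 (interval -1.20 to 0.46, limma p 0.322, adjusted p 0.936). Without CREB-KO replicate 3 the difference was -0.0043.

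Lta had values of 9.07, 8.81 and 8.11 on CREB-KO arrays, against 8.73, 8.49 and 8.78 on CREB-WT arrays (cluster TC1700001955.mm.1). CREB-KO held both the highest and the lowest array, and replicate 3 was again the lowest. The difference was -0.006 ± 0.26, with both group means at 8.67 and an interval from -0.63 to 0.62 (limma adjusted p 0.999), and without CREB-KO replicate 3 it was 0.27. CREB-KO replicate 3 also had the lowest macrophage and monocyte marker level of the 6 arrays, as given above. The next lowest marker level was on CREB-KO replicate 2 (6.34), where Tnf stood at 11.68. CREB-WT replicate 1 had the highest marker level (8.26), with Tnf at 11.49. Macrophages are a well-known source of TNF. The sort is meant to remove these cells, and their part in the Tnf values was not tested.

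Il2 and Il21 encode cytokines that signal through receptors with the common gamma chain. Interleukin-2 is the growth factor on which Tregs depend but which they hardly make themselves, and interleukin-21 is made by follicular and type 17 helper T cells. Il2 read 7.95, 6.03 and 7.35 on CREB-KO arrays and 6.48, 6.71 and 5.93 on CREB-WT arrays (cluster TC0300001864.mm.1). CREB-KO replicates 1 and 3 were the highest of the 6 arrays, whereas CREB-KO replicate 2 was close to the lowest CREB-WT array. The means were 7.11 ± 0.99 in CREB-KO and 6.38 ± 0.40 in CREB-WT, a difference of 0.73 ± 0.50 or 1.66-fold (interval -0.47 to 1.94, limma p 0.189, adjusted p 0.913, exact permutation p 0.3). Without CREB-KO replicate 2 Il2 was past the study's thresholds, at 1.27 with a limma p of 0.0082 and an adjusted p of 0.954. Without CREB-KO replicate 1 it was 0.31 (limma p 0.515), under the fold limit. Markers of conventional CD4 T cells, which make Il2, had mean levels of 11.21 to 11.32 on CREB-KO arrays and of 10.96 to 11.33 on CREB-WT arrays (7 measured, 1 of them higher at the thresholds). Their part in the Il2 values was not tested.

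Il21 had 5.91, 5.07 and 7.85 on CREB-KO arrays, against 5.83, 5.19 and 5.72 on CREB-WT arrays (cluster TC0300001867.mm.1). A single array, CREB-KO replicate 3, stood above the other 5, which all lay within the range of 5.07 to 5.91. The difference of 0.69 ± 0.68 had the widest interval of the 10 genes (-0.95 to 2.33, limma p 0.346, adjusted p 0.938). Without CREB-KO replicate 3 it turned to -0.094. Il2 and Il21 were thus highest on different CREB-KO arrays, although their genes lie close together on the same chromosome.

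Il17a, Il22 and Il9 encode the cytokines that name the type 17, type 22 and type 9 helper T cells. Interleukin-17A draws neutrophils, interleukin-22 acts on epithelial cells, and interleukin-9 promotes mast cells. Il17a read 3.45, 3.26 and 3.95 on CREB-KO arrays and 3.44, 3.23 and 3.29 on CREB-WT arrays (cluster TC0100000127.mm.1). Again CREB-KO replicate 3 was the highest, and the other 5 arrays lay close together. The difference was 0.23 ± 0.20 (interval -0.25 to 0.71, limma p 0.28, adjusted p 0.932), and 0.03 without CREB-KO replicate 3.

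Il22 had 3.72, 3.69 and 3.59 on CREB-KO arrays, against 3.45, 3.47 and 3.36 on CREB-WT arrays (cluster TC1000001375.mm.1). It was the gene whose groups did not overlap, with means of 3.67 ± 0.07 in CREB-KO and 3.43 ± 0.06 in CREB-WT. The difference of 0.24 ± 0.11 or 1.18-fold (interval -0.02 to 0.50, limma p 0.0632, adjusted p 0.903, exact permutation p 0.1) was under the study's fold limit. Of the olfactory receptor clusters, which are taken as background here, 9.7% likewise had CREB-KO entirely above CREB-WT. Iltifb, a near copy of Il22 in some mouse strains, had its own cluster near background, with a difference of 0.0008 (limma p 0.997). Signal from the 2 copies on one cluster cannot be told apart without the probe sequences, so the Il22 values are uncertain in this respect.

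Il9 stood at 4.66, 4.43 and 4.65 on CREB-KO arrays and at 4.56, 4.50 and 4.32 on CREB-WT arrays (cluster TC1300002082.mm.1). The arrays of both groups were interspersed. The difference was 0.12 ± 0.13 (interval -0.19 to 0.43, limma p 0.387, adjusted p 0.943), and 0.051 without CREB-WT replicate 3.

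Ebi3 and Fgl2 stand for the inhibitory side. Ebi3 encodes the subunit that interleukin-35 and interleukin-27 have in common, and Fgl2 encodes a fibrinogen-like protein that Tregs secrete and that acts through an inhibitory Fc receptor on antigen-presenting cells. Ebi3 read 8.41, 9.47 and 8.74 on CREB-KO arrays and 7.58, 8.30 and 8.47 on CREB-WT arrays (cluster TC1700000992.mm.1). A single pair of arrays, CREB-KO replicate 1 and CREB-WT replicate 3, made the groups overlap. The means were 8.87 ± 0.54 in CREB-KO and 8.12 ± 0.47 in CREB-WT, and the difference of 0.76 ± 0.34 or 1.69-fold was the highest of the 10 genes (interval -0.08 to 1.59, limma p 0.0682, adjusted p 0.908, exact permutation p 0.2). It was over the study's fold limit but not its p limit, and without CREB-KO replicate 1 it was past both, at 0.99 with a limma p of 0.035 and an adjusted p of 0.728. After quantile normalization it was just past both as well (0.73, limma p 0.0497). Without CREB-KO replicate 2 it was 0.46 (limma p 0.192) and without CREB-WT replicate 1 it was 0.49 (limma p 0.194), both under the fold limit.

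Fgl2 had 8.35, 8.59 and 8.84 on CREB-KO arrays, against 8.32, 7.70 and 8.39 on CREB-WT arrays (cluster TC0500000171.mm.1). CREB-KO replicate 1 lay just below CREB-WT replicate 3, and the other CREB-KO arrays were above all CREB-WT arrays. The means were 8.59 ± 0.25 in CREB-KO and 8.14 ± 0.38 in CREB-WT, a difference of 0.46 ± 0.23 or 1.37-fold (interval -0.10 to 1.01, limma p 0.0909, adjusted p 0.912, exact permutation p 0.2). Without CREB-WT replicate 2 it was 0.24. Both genes are also known from macrophages and dendritic cells, whose markers lay mostly below 0. For dendritic cells this held for 8 of 9 markers, 1 of which (Itgax) was lower at the study's thresholds, with mean levels of 4.86 to 5.17 on CREB-KO arrays and 5.07 to 5.50 on CREB-WT arrays, and 5 of the 9 were near background in both groups. The part of these cells was not tested.

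**Figure D2:**
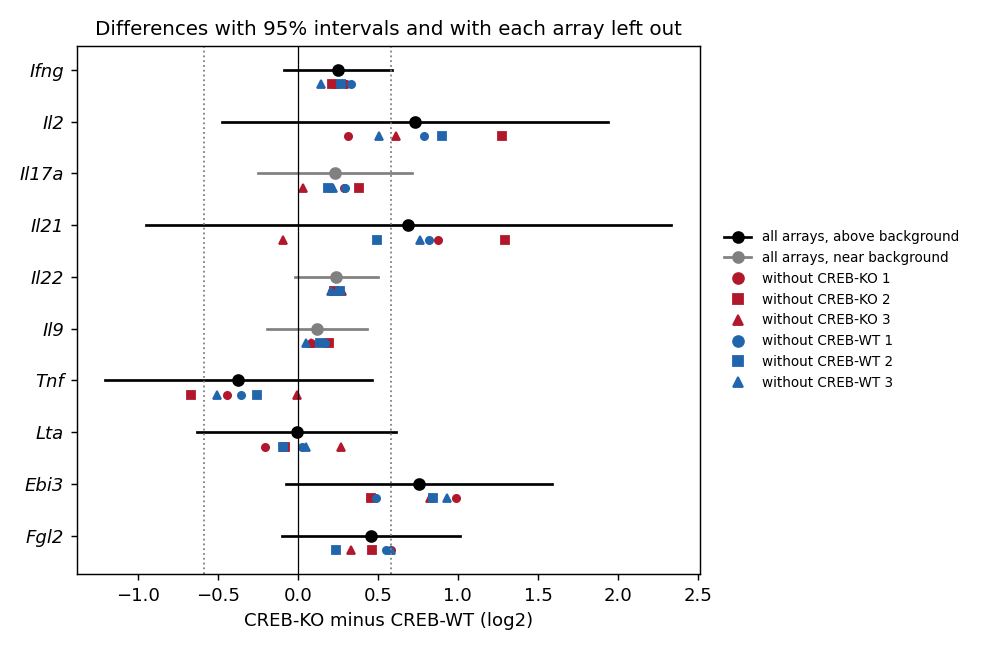
Difference CREB-KO minus CREB-WT (log2, horizontal axis) of each of the 10 genes with its 95% interval from limma (black, or grey where near background in both groups), the difference with each array left out in turn below it (red CREB-KO, blue CREB-WT), and the study's 1.5-fold limits as dotted lines. All 10 intervals include 0, and those of Il22 and Il9 alone lie within the 1.5-fold limits, and the sign turns for Il21 without CREB-KO replicate 3 and for Lta, which is close to 0, without CREB-KO replicate 3, CREB-WT replicate 1 or CREB-WT replicate 3.

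How large a change these arrays could have missed differed from gene to gene. The 95% interval lay wholly within the 1.5-fold limits in 2 genes, Il22 and Il9, which were both near background. In the other 8 it reached a 1.5-fold change in at least 1 direction. Over all 10 genes its half-width ran from 0.26 for Il22 to 1.64 for Il21. The missing calls for Ifng, Il2, Il17a, Il21, Tnf, Lta, Ebi3 and Fgl2 therefore do not show that both groups had the same level. Differences near background are compressed in these values, so the narrow intervals of Il22 and Il9 do not bound a change in RNA either.

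The spread within CREB-KO was wider than within CREB-WT in 7 of the 10 genes, where 51.8% of all clusters were wider in CREB-KO. The range over the 3 CREB-KO arrays was above 1 in 4 genes, at 1.93 for Il2, 2.78 for Il21, 1.33 for Tnf and 1.06 for Ebi3. Over the CREB-WT arrays it was above 1 in 0 genes and reached 0.89. The arrays that set these ranges were not the same. CREB-KO replicate 1 was the highest for Il2, replicate 2 for Ebi3 and replicate 3 for Il21, and replicate 3 was the lowest for Tnf.

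**Figure D3:**
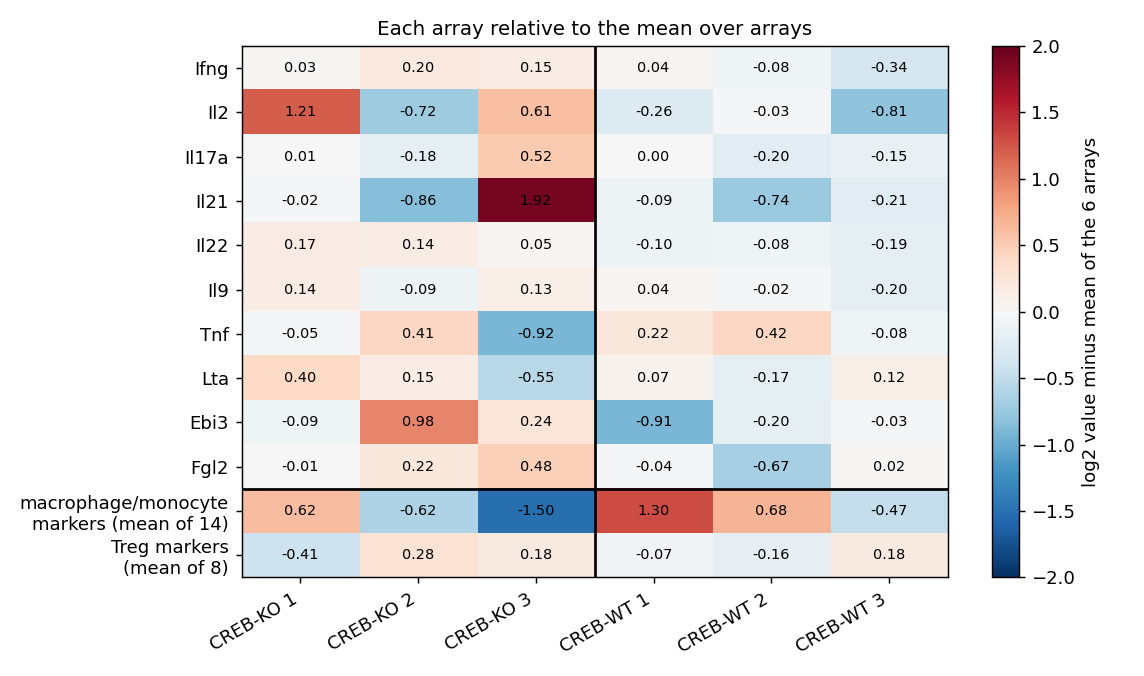
Log2 value of each gene (rows) on each array (columns, CREB-KO left of the line) minus the mean over the 6 arrays, with the mean of the macrophage and monocyte markers and of the Treg markers below. CREB-KO replicate 3 is 1.92 above the mean for Il21 and 0.92 below it for Tnf, while Il2 is 1.21 above it on CREB-KO replicate 1.

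Promoter sequences were set beside these values because CREB acts through the CRE, TGACGTCA, and its half-site TGACG. For the AP-1 factors that drive many cytokine genes the pattern TGANTCA was searched, with any base allowed at N. Each motif was searched on both strands from 250 bases before to 50 bases after the RefSeq start (GRCm38.p6), and every full CRE also holds the half-site. All 10 genes matched a RefSeq promoter. The full CRE was in 0 of the 10, and in 1.79% of 32851 promoters of the same length. A half-site was in 3, Ifng, Il17a and Il9, against 20.8% of all promoters. The AP-1 pattern was in 3, Il17a (TGAATCA), Il9 (TGACTCA) and Fgl2 (TGAGTCA), against 7.81%. A match is a description of the letters and no evidence of a bound site. The stretches of 250 bases before the start are given 5′ to 3′ for 4 genes, with matches in capitals: Ifng for its half-site at -197 (chr10:118440796-118441045, plus strand), Il17a for its half-sites at -144 and -63 and its AP-1 motif at -244 (chr1:20730655-20730904, plus strand), Fgl2 for its AP-1 motif at -16 (chr5:21372423-21372672, plus strand), and Ebi3, the gene with the highest difference, which held no match (chr17:55952373-55952622, plus strand).
Ifng: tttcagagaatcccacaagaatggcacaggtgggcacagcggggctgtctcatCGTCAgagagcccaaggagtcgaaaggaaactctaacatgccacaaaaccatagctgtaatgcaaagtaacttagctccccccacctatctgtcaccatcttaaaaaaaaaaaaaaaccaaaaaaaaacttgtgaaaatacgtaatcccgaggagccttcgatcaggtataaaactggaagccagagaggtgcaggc
Il17a: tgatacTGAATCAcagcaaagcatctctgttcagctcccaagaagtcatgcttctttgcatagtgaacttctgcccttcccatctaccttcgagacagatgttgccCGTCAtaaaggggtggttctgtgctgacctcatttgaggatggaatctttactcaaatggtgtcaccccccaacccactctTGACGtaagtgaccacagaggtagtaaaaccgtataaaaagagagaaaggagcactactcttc
Fgl2: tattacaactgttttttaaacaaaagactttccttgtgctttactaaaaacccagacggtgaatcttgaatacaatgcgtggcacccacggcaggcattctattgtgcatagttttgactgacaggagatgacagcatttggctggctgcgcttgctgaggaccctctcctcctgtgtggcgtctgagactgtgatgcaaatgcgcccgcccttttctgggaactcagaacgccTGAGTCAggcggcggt
Ebi3: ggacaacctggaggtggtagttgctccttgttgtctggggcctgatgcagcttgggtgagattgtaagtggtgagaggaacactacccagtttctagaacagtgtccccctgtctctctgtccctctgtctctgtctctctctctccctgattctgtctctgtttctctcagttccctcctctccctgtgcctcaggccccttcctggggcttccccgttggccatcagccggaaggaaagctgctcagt

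The receptors through which these cytokines act were measured in the same bulk samples. In these samples 13 of 14 macrophage and monocyte markers lay below 0, as given above. The part of such cells in the receptor values was not tested. Of 19 receptor chains with a cluster of their own, 0 were past the study's thresholds, where 1.57% of 30176 genes were (0.911% higher and 0.659% lower in CREB-KO). Of the 19, 17 lay below 0, with a median difference of -0.12, whereas 41% of all genes lay below 0 and their median was 0.04. Of the 13 chains above background in both groups, 11 lay below 0. The count below 0 was 18 of 19 after centring or quantile normalization, and 13 of 19 without CREB-WT replicate 1.

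Ifngr1, the ligand-binding chain of the interferon-gamma receptor, had 11.95, 12.46 and 12.56 on CREB-KO arrays, against 12.89, 12.75 and 13.07 on CREB-WT arrays. All CREB-KO arrays lay below all CREB-WT arrays, and the difference of -0.58 ± 0.19 (limma p 0.0232, adjusted p 0.86) was just short of the 1.5-fold limit of 0.585. It was past the limit when CREB-KO replicate 2 (-0.65), CREB-KO replicate 3 (-0.70) or that of CREB-WT numbered 2 (-0.66) was left out, and also after centring (-0.64) or quantile normalization (-0.60). It was -0.39 without CREB-KO replicate 1, -0.50 without CREB-WT replicate 3 (limma p 0.0739) and -0.40 without both arrays numbered 1 (limma p 0.0914), and the p of the methods' t-test was 0.0514. Ifngr2, the signalling chain of the same receptor, was 9.43 ± 0.19 in CREB-KO and 9.77 ± 0.16 in CREB-WT, again without overlap (-0.35 ± 0.15, limma p 0.0566). Il2ra, which encodes CD25 and was used to isolate the cells, was 14.66 ± 0.25 in CREB-KO and 15.11 ± 0.26 in CREB-WT (-0.45 ± 0.19, limma p 0.0547). Il21r had no overlap between the groups either, with a difference of -0.41 ± 0.18.

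**Figure D4:**
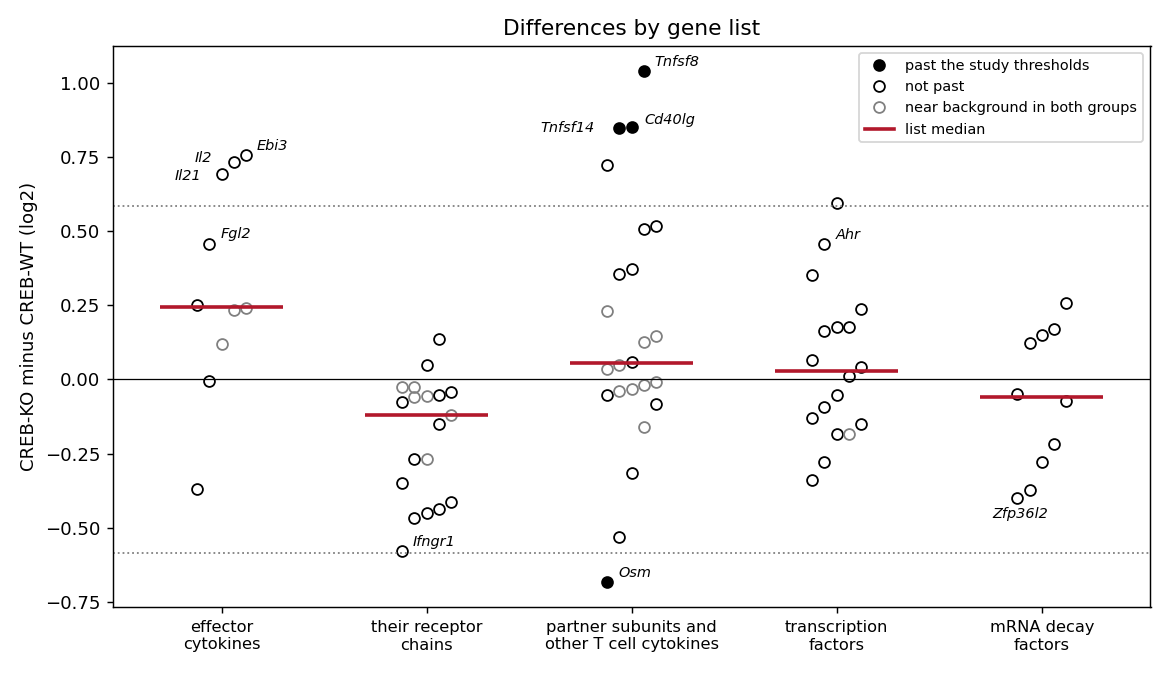
Difference CREB-KO minus CREB-WT (log2, vertical axis) of the 10 cytokine genes, their receptor chains, partner subunits and other T cell cytokines, transcription factors and mRNA decay factors. Each point is a gene, filled if past the study's thresholds and grey if near background in both groups, and the red bar is the median. Of the 19 receptor chains 17 lie below 0, where 41% of all genes do. Of the 10 cytokine genes 8 lie above 0, where 59% of all genes do. Near background in both groups are 6 of the receptor chains and 3 of the cytokine genes.

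Of 24 partner subunits and other T cell cytokines 3 were higher and 1 lower at the study's thresholds (4 of 24, against 1.57% of genes), with a median difference of 0.06. All 4 were among the 14 of this list above background in both groups. Of all clusters above the background limit 4.43% were past the thresholds. The 3 that were higher were Tnfsf8, Cd40lg and Tnfsf14. Tnfsf8, which encodes the ligand of CD30, had 11.38, 10.50 and 11.72 on CREB-KO arrays and 10.49, 9.67 and 10.33 on CREB-WT arrays, and all CREB-KO arrays were above all CREB-WT arrays (1.04 ± 0.37, limma p 0.028, adjusted p 0.873). Cd40lg, the helper signal to B cells and also a marker of conventional CD4 T cells, stood at 10.60, 9.91 and 10.67 on CREB-KO arrays and at 9.75, 9.12 and 9.75 on CREB-WT arrays, likewise without overlap (0.85 ± 0.27, limma p 0.0192, adjusted p 0.846). The ligand LIGHT, encoded by Tnfsf14, was 8.79, 9.37 and 9.94 on CREB-KO arrays and 8.86, 8.69 and 8.005 on CREB-WT arrays, with overlap at 1 array (0.85 ± 0.35, limma p 0.0496, adjusted p 0.894). This p was close to the limit, and the call was lost after centring (limma p 0.0596) or quantile normalization (limma p 0.0678). A smaller difference was measured for Tnfsf11, the ligand of RANK, at 8.72 ± 0.11 in CREB-KO and 8.34 ± 0.17 in CREB-WT (0.37 ± 0.14, limma p 0.0319), under the fold limit.

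Osm, which encodes oncostatin M, a cytokine of the interleukin-6 family and a target of STAT5, was the gene that was lower. Its values were 7.04, 6.67 and 6.42 on CREB-KO arrays and 7.34, 7.87 and 6.96 on CREB-WT arrays (-0.68 ± 0.27, limma p 0.0437, adjusted p 0.89), with the highest CREB-KO array above the lowest CREB-WT array. Macrophages also make oncostatin M, and the part of their RNA, whose marker levels are given above, was not tested. All 4 calls were lost on leaving out CREB-KO replicate 3, and also on leaving out CREB-WT replicate 2. Tnfsf8 was 0.78 and 0.79 without these arrays, Cd40lg 0.71 and 0.64, Tnfsf14 0.56 and 0.93, and Osm -0.54 and -0.44. Without CREB-KO replicate 1 the calls of Tnfsf8 (limma p 0.0775) and Cd40lg (limma p 0.06) were lost. Without CREB-KO replicate 2 those of Osm (limma p 0.0998) and Tnfsf14 (limma p 0.104) were lost. The call of Osm was also lost without CREB-WT replicate 1, and that of Tnfsf14 without CREB-WT replicate 3. Partner chains of Ebi3 and Lta were measured too. Il12a, the other chain of interleukin-35, and Il27, that of interleukin-27, were near background in both groups, and Ltb, the partner of Lta, was 13.29 ± 0.25 in CREB-KO and 12.93 ± 0.62 in CREB-WT (0.36 ± 0.32, limma p 0.313). Il17f, the close relative of Il17a, was also near background.

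Of 18 measured transcription factors that act on these cytokine genes 0 were past the study's thresholds, 10 lay above 0 and 8 below, and their median was 0.03. The smallest p belonged to Ahr, a ligand-gated factor that promotes Il22 and Il17a, at 7.86 ± 0.14 in CREB-KO and 7.40 ± 0.10 in CREB-WT (0.46 ± 0.13, limma p 0.0104, adjusted p 0.814), which was under the fold limit. Maf, an activator of Il21 and Il10, differed by 0.24 ± 0.12 (limma p 0.105). Batf, an AP-1 factor of type 17 and follicular helper cells, differed by 0.60 ± 0.35 (limma p 0.139), by 0.31 without CREB-KO replicate 3 and by 0.87 without CREB-WT replicate 3. Of 10 factors that control the decay of cytokine mRNAs 0 were past the thresholds, 6 lay below 0, and the median was -0.06. The smallest p values belonged to 3 relatives that bind AU-rich elements, Zfp36l2 (-0.40 ± 0.19, limma p 0.0779), Zfp36l1 (-0.28 ± 0.20, limma p 0.218) and Zfp36 (-0.37 ± 0.29, limma p 0.251). Without CREB-KO replicate 1 Zfp36l1 was -0.097 and Zfp36 was -0.032.

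For each of the 7 cytokine genes above background, the 3 genes whose 6 values ran most alike were drawn from 10286 candidates by Pearson's r, as a description without a p, in which all genes of an array share its hybridisation. For Ifng they were Hsbp1 (0.978), Asb2 (0.977) and Mir465b-2 (0.971), and for Il2 Slc35b3 (0.977), mmu-mir-6362 (0.970) and Srp19 (0.970). Il21 ran most like Afdn (0.984), Rps24-ps2 (0.978) and Fbxw17 (0.973). The closest to Tnf were Ampd1 (0.969), Kansl2-ps (0.968) and Prmt9 (0.967), and to Lta Efcab9 (0.996), Marchf7 (0.988) and St3gal4 (0.986). Ebi3 ran most like Rbbp5 (0.989), Pelp1 (0.989) and Ppp3r1 (0.988), and Fgl2 like Smpdl3a (0.993), Rab11a (0.991) and Itgb3bp (0.988). None of these 7 genes was among the 3 closest of another, and with so many candidates and 6 arrays, values of this size have no test behind them.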

How the data were processed

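CD4+CD25+Nrp1+ splenic Tregs of 3 CREB-KO and 3 CREB-WT mice were measured on Affymetrix mouse arrays, and the labels name a separate individual per array. The authors deposited log2 values per transcript cluster, made with RMA per the submitters' processing notes (version not given in the sources), which corrects background, normalizes arrays to each other and summarises probes. The sources differ on the array type, the kit and the input RNA (7.92 ng per the labels). The file reaches above the scanner's usual ceiling, which no source here accounts for. RMA pulls low signals together, so differences near background are compressed.

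Groups came from the labels. Symbols came from the platform annotation (30638 clusters with 1 symbol, 2176 with several, 33142 with none), and each gene was read from its cluster with the highest mean. Differences were fitted with limma 3.58.1 in R 4.3.3 (lmFit, eBayes, two-sided) on all 65956 clusters with no filter, with Benjamini-Hochberg adjustment over them. The study's thresholds were 1.5-fold with p 0.05 before adjustment. The script was tested on simulated data. The members and lists were chosen with earlier results of these data known. All 10 genes are named. Of each list, genes past the thresholds and the 3 with the smallest p are named, and a few others (Il21r, partner subunits) were named after their values were seen. Alternatives were each array left out, a replicate block, the methods' t-test, a variance trend, other scalings, a background filter, other background limits and every cluster of a gene. The number of arrays limits the precision. Promoters came from RefSeq.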

Additional observations from a re-analysis of the deposited data

How the results depend on the processing

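Of the 10 cytokine genes 0 were past the study's thresholds with all arrays, and this count ran from 0 to 1 when each array was left out in turn, with Ebi3 called without CREB-KO replicate 1 and Il2 without CREB-KO replicate 2. It was 1, Ebi3, after quantile normalization (0.73, limma p 0.0497). Under the other alternatives it was 0, except with the replicate block below. Over all clusters the count of 1547 became 888 with the methods' t-test and 2330 without both arrays numbered 1, and ran from 1648 to 2456 with each array left out. The adjusted count was 0 for the 10 genes and for all clusters under each alternative run. The count of cytokine genes without overlap, 1 with all arrays, was 2 after quantile normalization, 0 among genes above the background limit, 4 without both arrays numbered 1, and 1 to 5 with each array left out, where fewer arrays make overlap less likely.

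With each array left out, Il21 ran from -0.094 to 1.29 and Lta from -0.21 to 0.27. The direction turned for Il21 without CREB-KO replicate 3 and for Lta, which is close to 0, without CREB-KO replicate 3 (0.27), CREB-WT replicate 1 (0.03) or CREB-WT replicate 3 (0.05). Receptor chains past the thresholds went from 0 to 1, Ifngr1, after centring and after quantile normalization, and ran from 0 to 1 with each array left out. The 4 partner and other cytokines became 0 with the methods' t-test, 2 with a variance trend, 2 with the background filter, 2 without both arrays numbered 1 (Tnfsf14 and Ccl3), 3 after centring and after quantile normalization, and 0 to 3 with each array left out. The genes called were not always the same: without CREB-KO replicate 1 they were Osm, Tnfsf14 and Ccl3. The call of Tnfsf14 was lost after centring (limma p 0.0596), after quantile normalization (0.0678), with a variance trend (0.0561), with the background filter (0.0563) and with the methods' t-test (0.115). Transcription factors ran from 0 to 1 with each array left out (Batf without CREB-WT replicate 3, 0.87). The count near background was 3, also at the 90th percentile and on every array, and 2 with the median of all clusters as the limit, where Il9 was above it in CREB-KO only.

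The replicate numbers in the labels do not state a shared litter or day, and the deviations of same-numbered arrays correlated at 0.218, 0.0175 and 0.0412, with CREB-KO replicate 2 closest to CREB-WT replicate 3 (0.177). The pair numbered 1 had the highest value of all pairs. Values of this kind cannot tell whether same-numbered arrays share a litter or day, so this stays unknown. With the replicate block 1 cytokine gene was past the thresholds (Ebi3, limma p 0.0192), 1 transcription factor (Batf, limma p 0.00638), 2037 clusters, and 3 of the 4 partner and other cytokines, with Tnfsf14 lost (limma p 0.0954).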
